A study of Mus musculus with 6 samples.

Results

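The transcripts of pyruvate entry and the citric acid cycle were compared between MII oocytes from in vitro maturation (IVM) and from in vivo ovulation (IVO). The 34 genes encode the mitochondrial pyruvate carrier, the pyruvate dehydrogenase (PDH) complex with its kinases and phosphatases, enzymes of side entries and exits, and enzymes of the cycle between citrate synthase and malate dehydrogenase. The only aconitase among the 34 is the cytosolic one, Aco1. The genes were selected by gene symbol with an Ensembl mouse identifier, which gave 34 of the 60193 rows of the expression table, and the rule itself uses no measured value. Of the 34 genes, 30 had a mean of at least 1 FPKM (fragments per kilobase of transcript, scaled to the size of the library) over all samples and were tested, while Pdk2, Pdp2, Pck2 and Idh3b lay under that limit.

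All samples were MII oocytes, arrested at the second meiotic metaphase, from female ICR mice aged 42 to 45 weeks, an outbred strain at advanced reproductive age. There were 3 IVM and 3 IVO samples, and each was a pool of 20 oocytes taken from 3 mice, so that values describe pools and not single oocytes or animals. All mice were primed with PMSG, a gonadotropin that stimulates follicle growth. For IVM, oocytes at the germinal vesicle stage were taken from antral follicles 46 h later, stripped of cumulus cells and cultured for 12 h in M16, a simple medium that supplies pyruvate, lactate and glucose. For IVO, hCG was given 46 h after PMSG and the ovulated oocytes were taken from the oviduct 14 h later, with the cumulus cells removed by hyaluronidase. The maturation milieu, the time of collection and the way cumulus cells were removed thus differed together between the groups and cannot be told apart.

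Pyruvate is the main fuel of the maturing mouse oocyte, which uses glucose poorly and normally receives pyruvate from the surrounding cumulus cells. The carrier brings it into the mitochondrial matrix, the PDH complex converts it to acetyl-CoA, and citrate synthase joins this to oxaloacetate. The cycle then oxidizes citrate step by step, passing electrons to NADH, NADPH and ubiquinone and forming ATP or GTP once, at succinyl-CoA ligase.

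The genes past the test lay in 4 groups of enzymes, and all but one of them were lower in IVO. Idh2, Sdhd, Mdh2 and Aco1 were lower in IVO oocytes at the threshold of the study (|log2FC| ≥ 1 and adjusted p under 0.05, from limma on log2(FPKM + 1) with log2FC as IVO minus IVM). Mdh2 and Aco1 reached the limit of 1 FPKM over all samples only through IVM. Their means were 4.38 and 2.22 FPKM in IVM and 0.983 and 0.487 FPKM in IVO. With no filter on low values, limma gave them a log2FC of -1.40 and -1.10 (adjusted p = 0.0491 and 0.0377). Cs, Idh3a and Idh3g were lower at an adjusted p under 0.05 but short of the log2FC threshold. Sucla2 was higher. The other 22 tested genes did not pass, among them every tested gene of the pyruvate carrier, the PDH complex, its kinases and phosphatases, and the side reactions. Lower calls at the threshold were 4 of 30 (13.3%), beside 17.9% of the 18818 rows tested and 14.6% of the Ensembl genes among them. The higher call was 1 of 30 (3.33%), beside 0.606% and 0.623%. At an adjusted p under 0.05 with any fold, 7 of 30 (23.3%) were lower, beside 21.5%, and 1 was higher, beside 1.87%. The lower shares were thus near those of all rows, and the higher share rests on a single gene.

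**Figure D1:**
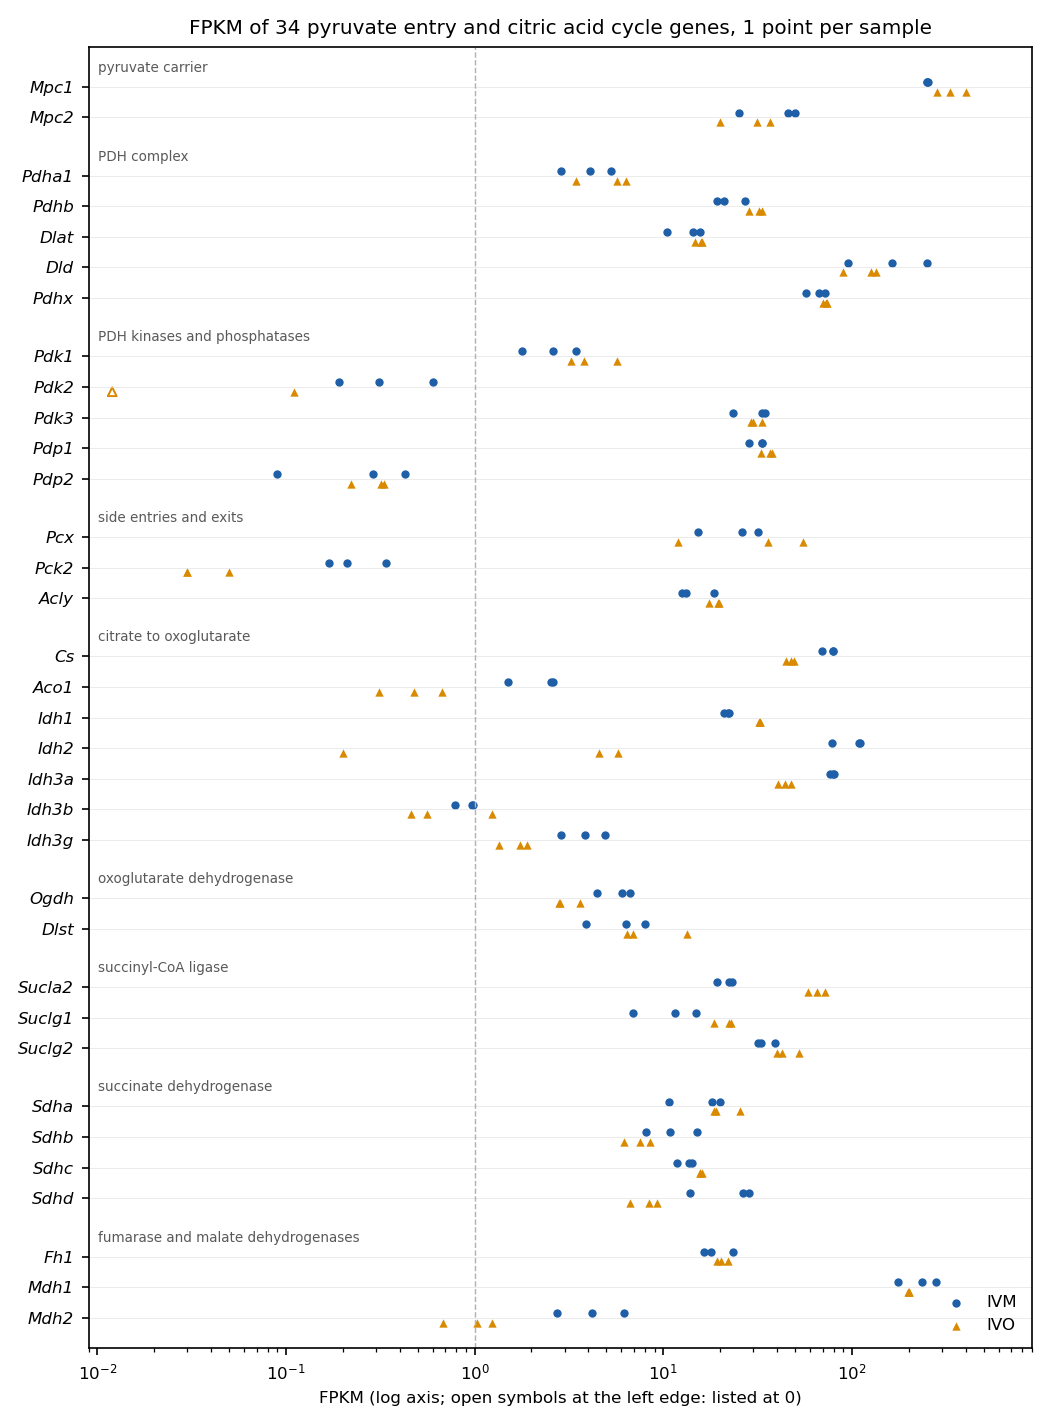
FPKM of each of the 34 genes in the 3 IVM samples (circles) and the 3 IVO samples (triangles), on a log axis, grouped by enzyme, with the dashed line at 1 FPKM and values of 0 drawn as open symbols at the left edge. Idh2 falls from 78.7 to 111 FPKM in IVM to 0.20 to 5.76 FPKM in IVO, and the Sucla2 samples move the other way, from 19.3 to 23.0 FPKM to 58.5 to 72.2 FPKM.

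Because transcripts stored in an oocyte are regulated through their 3′ ends during maturation, short windows at the 3′ ends of some transcripts are shown. They are given for Idh2 and Mdh2, the tested genes with the lowest log2FC. The single gene higher past the test is shown beside its sister subunit, and Sdhd beside Sdha of the same enzyme. Each window has 30 bases of the GENCODE M39 canonical transcript (GRCm39), 5′ to 3′ on the transcript strand. Capitals mark the polyadenylation hexamer AATAAA or ATTAAA found within the last 40 bases, and windows without capitals are the last 30 bases of transcripts in which neither hexamer was found there.
Idh2 (chr7:79744591-79744620, minus strand): ttagctactaaaaagctcttcgcaaaactg
Mdh2 (chr5:135819220-135819249, plus strand): aagcaggctctgattttctttttcaaggtc
Sucla2 (chr14:73834285-73834314, plus strand): gatttagaagtttgtgctATTAAAgttttg
Suclg2 (chr6:95450000-95450029, minus strand): ctgtaactatataaaaatATTAAAatagtt
Sdhd (chr9:50507653-50507682, minus strand): gaaaaaacaaaatttttaAATAAAatatta
Sdha (chr13:74470261-74470290, minus strand): tagggttgtagggccagaAATAAAagagga

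AATAAA was found in 19 of the 34 genes (55.9%), which include the 4 not tested. Beside this stand 54.8% of all 21563 canonical protein-coding transcripts and 58.6% of the 10303 of tested genes. ATTAAA alone was found in 7 (20.6%), beside 13.0% and 14.4%. Of the genes lower past the test whose windows are not shown, Cs and Idh3a had AATAAA, Aco1 had ATTAAA and Idh3g had neither. A cytoplasmic polyadenylation element was searched as TTTTAT or TTTTAAT in the last 100 bases on the transcript strand. It had to start upstream of the hexamer and was allowed to overlap it. This element was found in Pdp1 alone (1 of 34, 2.94%), beside 14.3% and 16.6%. None of the 8 genes past the test held these letters in that window. The matches describe the annotated ends and are not evidence of which end the oocyte used.

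The identity of the samples was checked first. All 10 oocyte markers averaged at least 1 FPKM, with summed levels of 21333 to 27825 FPKM in IVM and 21085 to 23299 FPKM in IVO, most of it from Oosp1 and Dppa3. Within the list Zp1, Zp2, Zp3, Bmp15, Nlrp5 and Mos were lower in every IVO than in every IVM sample, with Zp3 at 326 to 892 FPKM in IVM and 58.5 to 65.1 in IVO. Of 14 granulosa and cumulus markers 5 (Amhr2, Fshr, Cyp19a1, Nr5a2 and Kitl) reached 1 FPKM. Their list summed to 71.2 to 91.8 FPKM in IVM and 50.4 to 77.1 in IVO, with Amh at 0 in every sample and Foxl2 at 0.02 FPKM or less. Within this list Nr5a2 was lower in every IVO sample, at 28.3 to 39.2 FPKM in IVM and 13.5 to 17.8 in IVO. Has2, Ptx3 and Tnfaip6 were higher in every IVO than in every IVM sample, at 0.49 FPKM or less. The others of the list did not separate the groups. The 4 theca markers summed to at most 0.17 FPKM. The 4 leukocyte markers summed to 1.73 to 2.44 FPKM in IVM and 3.29 to 25.2 in IVO, of which Lyz2 in IVO 3 made up 15.7, and the 4 globins to at most 0.98 and 5.82. Their part in the results below was not tested. The summed FPKM was 1826700 to 2111800 in IVM and 1560800 to 1643700 in IVO, and the median log2FC of all tested rows was -0.30. It was -0.04 after median-ratio scaling and 0.17 after quantile normalization, so changes are best read against this shift.

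Idh2 changed most among the 30 tested genes. It encodes the NADP-dependent isocitrate dehydrogenase of the mitochondrial matrix, a source of NADPH there, and lies at chr7:79741431-79765535 on the minus strand (GRCm39), with 11 exons in its canonical transcript. Idh2 was at 111, 109.6 and 78.7 FPKM in IVM 1 to 3 and at 5.76, 4.56 and 0.20 FPKM in IVO 1 to 3. No IVO sample came near the IVM samples, and IVO 3 stood far below the other two IVO samples. The means were 99.6 ± 18.1 and 3.51 ± 2.93 FPKM (SD, n = 3), a 28.4-fold lower level in IVO, with a log2FC of -4.80 (SE 0.62, adjusted p = 0.00322). In pooled samples such a value is a share of the library, so fewer cells holding a transcript, less of it per cell and a change in the other RNA cannot be told apart. The length of poly(A) tails was not measured, and its part in this and the other values was not tested. At the sequencing depth read from the steps of low FPKM values, IVO 3 held about 5.4 fragments of Idh2 and IVM 2 about 3236. Leaving out IVO 3 gave a log2FC of -4.02 (adjusted p = 0.00188), and Idh2 stayed past the test in all 17 alternatives tried, including each scaling and each library left out.

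Idh1, the cytosolic enzyme of the same reaction, was at 20.9, 22.3 and 22.04 FPKM in IVM and 32.5, 32.2 and 32.5 FPKM in IVO. The IVO samples were all higher and nearly equal, but the log2FC of 0.55 (SE 0.17) missed the threshold, with an adjusted p of 0.0520. After median-ratio scaling it was 0.86 (adjusted p = 0.0175). Within each sample the ratio of Idh2 to Idh1 does not depend on library scaling. It was 5.29, 4.91 and 3.57 in IVM and 0.177, 0.141 and 0.00615 in IVO. The matrix transcript was thus the more abundant per length in every IVM sample and the less abundant in every IVO sample. The difference of the log2 ratio was -6.40, or -4.84 without IVO 3 (exact permutation test, two-sided, p = 0.1, the smallest that 3 against 3 samples allow, and 0.191 adjusted over 21 ratios).

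The NAD-dependent isocitrate dehydrogenase of the matrix is built from a catalytic alpha subunit (Idh3a), a beta subunit (Idh3b) and a gamma subunit (Idh3g) that takes part in its regulation. Idh3a (chr9:54493575-54514730, plus strand) was at 79.5, 76.5 and 80.7 FPKM in IVM and 44.2, 47.4 and 40.5 FPKM in IVO. The groups lay well apart, and the means of 78.9 ± 2.17 and 44.0 ± 3.48 FPKM (SD, n = 3) gave a log2FC of -0.83 (SE 0.17, adjusted p = 0.0130). Idh3a passed in 12 of 17 alternatives, among them each library left out, but under none of the 3 scalings (-0.51 and adjusted p = 0.0644 for the median ratio).

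Idh3g (chrX:72820644-72830719, minus strand) was far less abundant, at 4.91, 2.86 and 3.86 FPKM in IVM and 1.35, 1.73 and 1.90 FPKM in IVO. Its log2FC was -0.86 (SE 0.25, adjusted p = 0.0480), with all IVO samples below all IVM samples. The means differed 2.34-fold, and with a pseudocount of 0.1 in place of 1 the log2FC was -1.16 (adjusted p = 0.0475), past the fold threshold. Its adjusted p stayed under 0.05 in 4 of the 16 alternatives that tested it, and rose above with any library but IVM 2 left out, to 0.0832 to 0.138, and under median-ratio scaling (-0.62, adjusted p = 0.112). Over 301 exonic bases Idh3g overlaps Ssr4 on the opposite strand, which averaged 33.5 FPKM in IVM and 3.59 in IVO. The library kit does not mark strand, and the part of Ssr4 in the Idh3g values was not tested. Idh3b was at 0.98, 0.97 and 0.79 FPKM in IVM and 1.23, 0.46 and 0.56 in IVO and was not tested. The ratio of Idh3g to Idh3a overlapped between the groups, with a log2 difference of -0.36 (exact permutation p = 0.2).

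At the entrance of the cycle, Cs encodes citrate synthase (chr10:128172837-128198363, plus strand). It was at 79.2, 69.8 and 79.1 FPKM in IVM and 49.3, 44.9 and 47.8 FPKM in IVO. The lowest IVM sample stood above the highest IVO sample, and the means of 76.0 ± 5.41 and 47.4 ± 2.22 FPKM (SD, n = 3) gave a log2FC of -0.67 (SE 0.17, adjusted p = 0.0273). The adjusted p stayed under 0.05 in 7 of 17 alternatives, but not after median-ratio scaling (-0.35, adjusted p = 0.1498) or without IVM 1, IVO 1, IVO 2 or IVO 3 (adjusted p = 0.0643, 0.0724, 0.0968 and 0.0661).

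Aco1 encodes the cytosolic aconitase, which doubles as an iron regulatory protein, and lies at chr4:40142998-40199010 on the plus strand. It was at 2.61, 1.5 and 2.54 FPKM in IVM and 0.67, 0.48 and 0.31 FPKM in IVO, the lowest levels among the tested genes. The groups did not overlap, and the means differed 4.55-fold, with a log2FC of -1.10 (SE 0.27, adjusted p = 0.0278). The adjusted p of Aco1 stayed under 0.05 in 7 of the 16 alternatives that tested it, of which median-ratio scaling (-0.93) and removal of the length trend (-0.91) brought the log2FC inside the fold threshold. It rose above 0.05 with libraries set to the same sum (-0.94, adjusted p = 0.0633) and after quantile normalization (-0.64, adjusted p = 0.111). Of the libraries left out in turn, IVM 2 kept the adjusted p under 0.05 and the others gave 0.0541 to 0.0749. The ratio of Aco1 to Cs did not overlap between the groups, with a log2 difference of -1.53 (exact permutation p = 0.1). Acly, which splits citrate in the cytosol, went from 0.158, 0.190 and 0.235 of the Cs level in IVM to 0.397, 0.439 and 0.366 in IVO, a log2 difference of 1.06 (exact permutation p = 0.1), while Acly itself had a log2FC of 0.35 (SE 0.22, adjusted p = 0.281).

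**Figure D2:**
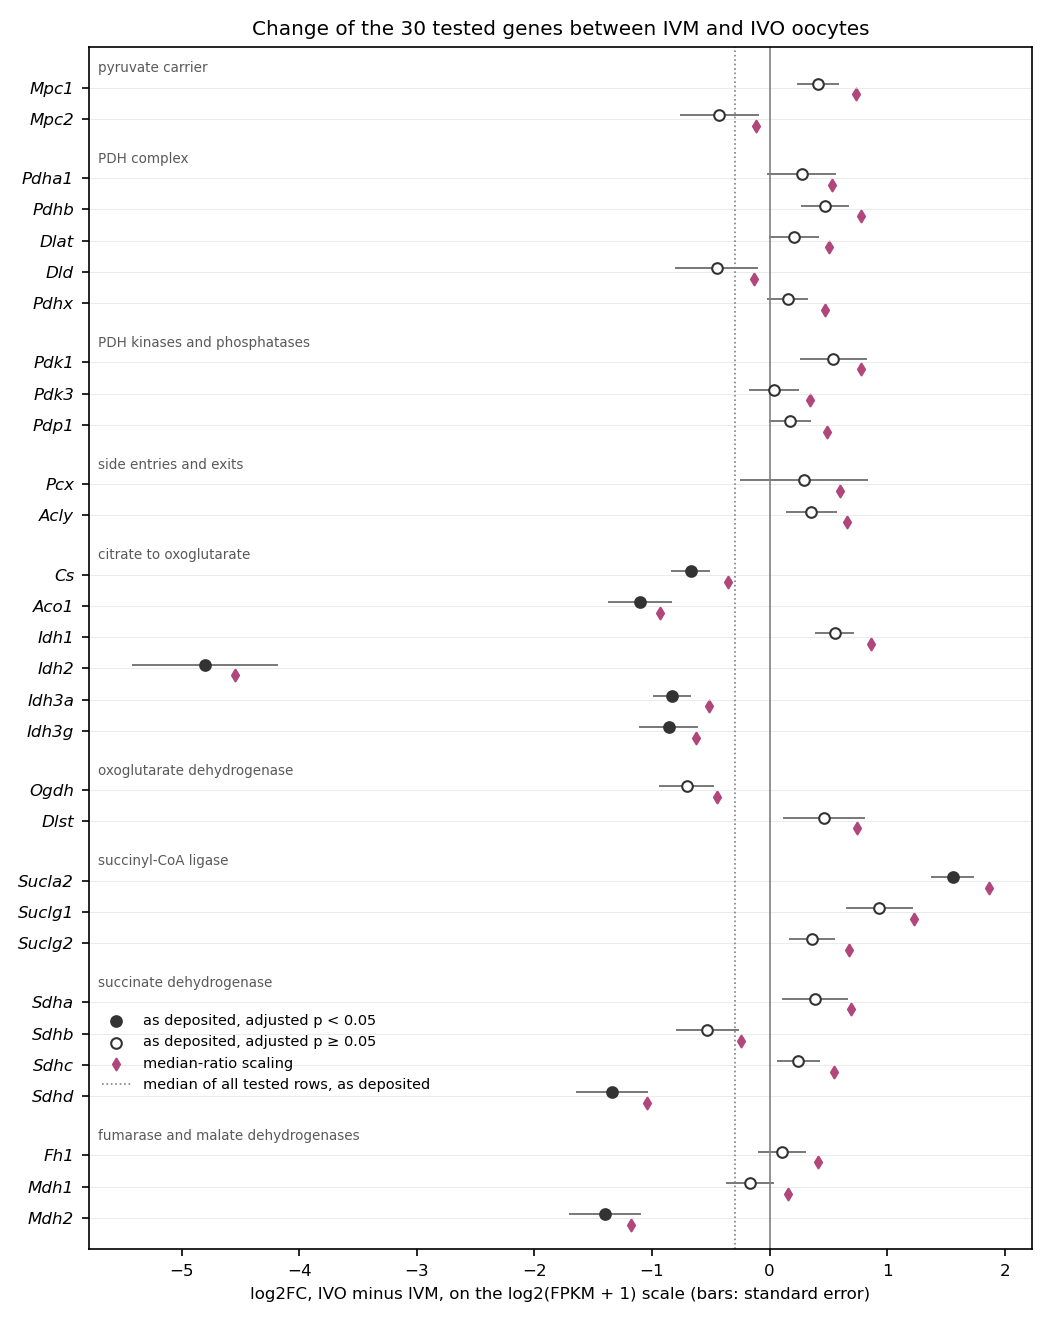
log2FC (IVO minus IVM) of the 30 tested genes with its standard error as a bar, filled where the adjusted p is under 0.05 and open otherwise, with the value after median-ratio scaling as a diamond and the median of all tested rows (-0.30) as a dotted line. Idh2 lies at -4.80 and Sucla2 at 1.56, and the diamonds stand to the right of the circles, so that Mdh1 crosses 0.

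Sucla2 was the only tested gene of the 34 that was higher in IVO past the test. It encodes the beta subunit that makes succinyl-CoA ligase form ATP, lies at chr14:73762759-73834335 on the plus strand and has 11 exons in its canonical transcript. Sucla2 was at 23.0, 19.3 and 22.4 FPKM in IVM and 72.2, 65.5 and 58.5 FPKM in IVO. Every IVO sample exceeded every IVM sample by a wide margin. The means were 21.5 ± 2.00 and 65.4 ± 6.90 FPKM (SD, n = 3), 3.03-fold higher in IVO, with a log2FC of 1.56 (SE 0.18, adjusted p = 0.00233). The call held in all 17 alternatives, whose log2FC ranged from 1.48 to 2.08.

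Suclg2 encodes the beta subunit that makes the same enzyme form GTP, and it was at 38.99, 31.9 and 33.1 FPKM in IVM and 52.3, 40.1 and 42.3 FPKM in IVO. These values did not overlap either, yet the log2FC of 0.36 (SE 0.19) did not pass, with an adjusted p of 0.224. The ratio of Sucla2 to Suclg2 was 0.590, 0.604 and 0.677 in IVM and 1.38, 1.63 and 1.38 in IVO. The more abundant beta subunit transcript per length was thus the GTP-forming one in all IVM samples and the ATP-forming one in all IVO samples. The log2 difference was 1.23, between 1.15 and 1.29 with each sample left out and 1.24 with the length trend removed (exact permutation p = 0.1, adjusted p = 0.191).

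Suclg1, the alpha subunit that both forms of the ligase share, was at 6.91, 11.5 and 14.8 FPKM in IVM and 22.9, 22.2 and 18.7 FPKM in IVO. All IVO samples were higher, but the spread in IVM was wide, and the log2FC of 0.93 (SE 0.29) had an adjusted p of 0.0542. It passed at 1.23 after median-ratio scaling (adjusted p = 0.0252) and without IVM 3 (adjusted p = 0.0413). The ratio of Suclg1 to Suclg2 overlapped between the groups (log2 difference 0.63, exact permutation p = 0.3).

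Succinate dehydrogenase, which is also complex II of the respiratory chain, joins a flavoprotein (Sdha), an iron-sulfur subunit (Sdhb) and 2 membrane anchors (Sdhc and Sdhd). Sdhd (chr9:50507642-50515195, minus strand) was at 13.9, 28.3 and 26.5 FPKM in IVM and 9.22, 8.45 and 6.67 FPKM in IVO. IVM 1 was the lowest of its group but still above every IVO sample. The means of 22.9 ± 7.88 and 8.11 ± 1.31 FPKM (SD, n = 3) differed 2.82-fold, with a log2FC of -1.34 (SE 0.30, adjusted p = 0.0204). Without IVM 2, IVM 3, IVO 2 or IVO 3 the call was lost (adjusted p = 0.0692, 0.0719, 0.0545 and 0.0575), as it was with the length trend removed (-1.09, adjusted p = 0.0519). With libraries set to the same sum (-1.03, adjusted p = 0.0679) and after quantile normalization (-0.84, adjusted p = 0.0849) it was lost too. It held narrowly after median-ratio scaling (-1.04, adjusted p = 0.0496). The adjusted p stayed under 0.05 in 9 of 17 alternatives.

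The other subunits of complex II did not pass. Sdha was at 10.7, 19.99 and 18.1 FPKM in IVM and 19.1, 25.6 and 18.6 FPKM in IVO, overlapping, with a log2FC of 0.39 (SE 0.28, adjusted p = 0.367). Sdhb had a log2FC of -0.53 (adjusted p = 0.196), and Sdhc, the other anchor, one of 0.25 (adjusted p = 0.376). The ratio of Sdhd to Sdha was 1.29, 1.42 and 1.46 in IVM and 0.482, 0.330 and 0.359 in IVO. It was above 1 in each IVM sample and under 0.5 in each IVO sample, and IVM 1 did not stand apart in it. The log2 difference was -1.85, between -2.01 and -1.74 with each sample left out (exact permutation p = 0.1, adjusted p = 0.191). For Sdhb and Sdhc over Sdha the groups overlapped (log2 difference -0.997 and -0.15).

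**Figure D3:**
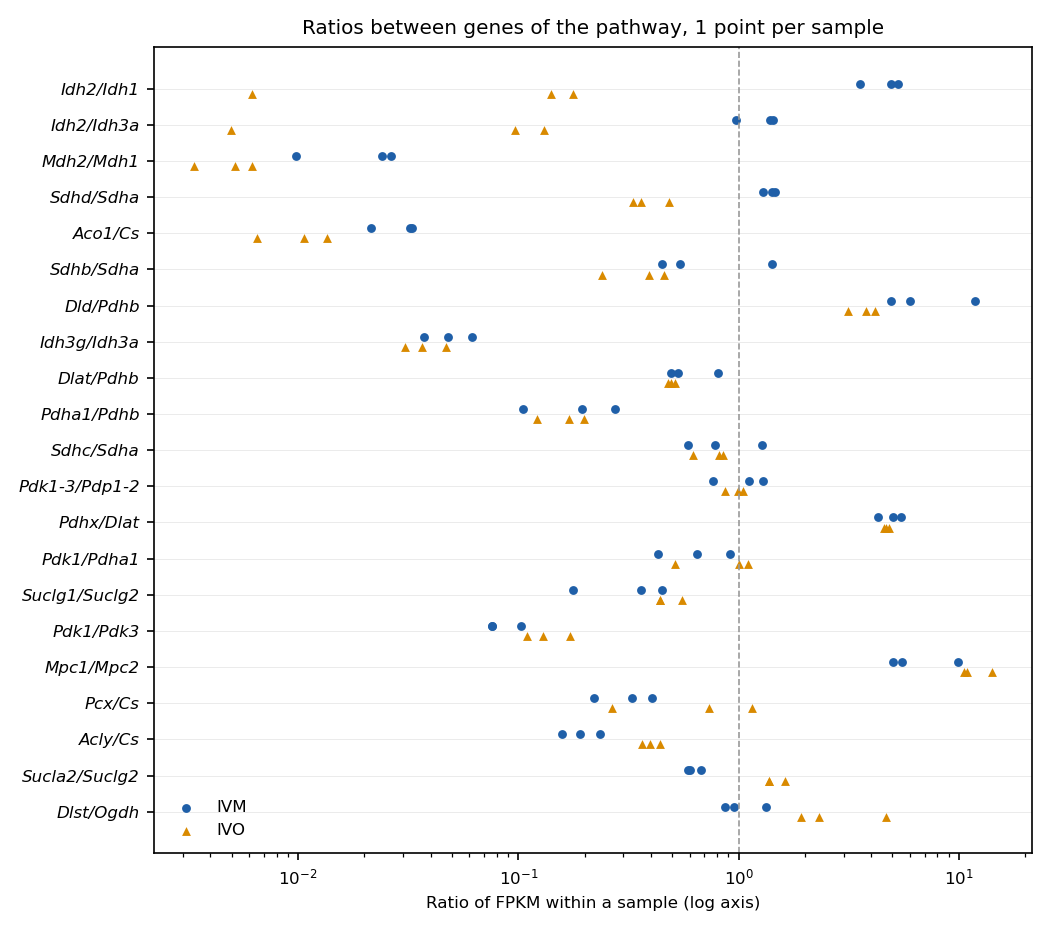
Ratio of the FPKM of 2 genes (or of 2 summed groups of genes) within each sample, on a log axis, for 21 ratios ordered by the difference between the 3 IVM samples (circles) and the 3 IVO samples (triangles), with a dashed line at 1. Idh2/Idh1 and Sdhd/Sdha cross from above to below 1 in IVO, and Sucla2/Suclg2 crosses from below to above 1.

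Mdh2 encodes the malate dehydrogenase of the matrix, which closes the cycle by making oxaloacetate, and lies at chr5:135807292-135820882 on the plus strand. It was at 6.22, 2.73 and 4.19 FPKM in IVM and 1.24, 1.03 and 0.68 FPKM in IVO. The lowest IVM sample was above the highest IVO sample. The means of 4.38 ± 1.75 and 0.983 ± 0.283 FPKM (SD, n = 3) differed 4.45-fold, with a log2FC of -1.40 (SE 0.31, adjusted p = 0.0181). The call was narrowly lost without IVM 3, IVO 2 or IVO 3 (adjusted p = 0.0535, 0.0506 and 0.0507) and the adjusted p stayed under 0.05 in 12 of the 16 alternatives that tested it. Each scaling was among these, but after quantile normalization the log2FC of -0.96 missed the fold threshold.

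Mdh1, the cytosolic malate dehydrogenase of the malate-aspartate shuttle, was among the most abundant genes of the 34, at 235, 278 and 174 FPKM in IVM and 201, 199 and 201 FPKM in IVO. The IVO samples lay within the range of the IVM samples. Its log2FC was -0.17 (SE 0.20, adjusted p = 0.604) as deposited, and 0.16 after median-ratio scaling, so its sign depended on the scaling. The ratio of Mdh2 to Mdh1 was low in all samples, 0.0265, 0.00982 and 0.0240 in IVM and 0.00618, 0.00517 and 0.00338 in IVO, with a log2 difference of -1.95 (exact permutation p = 0.1). Fh1, the fumarase, overlapped between the groups at 16.5 to 23.3 FPKM over all samples (log2FC 0.10, SE 0.20, adjusted p = 0.759).

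Before the cycle, no tested gene passed. Mpc1, an obligate partner of Mpc2 in the pyruvate carrier, had the highest mean of the 34 genes, at 251, 252 and 249 FPKM in IVM and 331, 400.1 and 282 FPKM in IVO. All IVO samples lay above the narrow IVM range, with means of 251 ± 1.90 and 338 ± 59.5 FPKM (SD, n = 3) and a log2FC of 0.41 (SE 0.18, adjusted p = 0.136). It passed after median-ratio scaling (0.73, adjusted p = 0.0338). Mpc2 was at 25.2, 45.6 and 49.7 FPKM in IVM and 31.3, 36.7 and 19.9 FPKM in IVO, with overlap and a log2FC of -0.43 (SE 0.34, adjusted p = 0.404) that turned to 0.04 after quantile normalization. The ratio of Mpc1 to Mpc2 was 9.95, 5.54 and 5.01 in IVM and 10.6, 10.9 and 14.2 in IVO, apart by a log2 difference of 0.85 (exact permutation p = 0.1).

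In the PDH complex, Pdha1 and Pdhb form the first enzyme, Dlat is the acetyl transferase, Dld the dihydrolipoyl dehydrogenase shared with the oxoglutarate complex, and Pdhx ties Dld to the core. Dld was at 163, 249 and 95.6 FPKM in IVM and 126, 134 and 89.5 FPKM in IVO. The IVM samples spread widely and the groups overlapped, with a log2FC of -0.45 (SE 0.36, adjusted p = 0.406) that turned to 0.07 after quantile normalization. Pdhb was at 27.2, 21.1 and 19.4 FPKM in IVM and 33.5, 32.01 and 28.5 FPKM in IVO, without overlap, with a log2FC of 0.47 (SE 0.20, adjusted p = 0.1398) as deposited and 0.78 (adjusted p = 0.0372) after median-ratio scaling. Pdha1, Dlat and Pdhx had a log2FC of 0.27, 0.21 and 0.15 with overlapping groups. Pdha1 shares 603 exonic bases with Map3k15 on the other strand, which averaged 71.1 FPKM in IVM and 21.2 in IVO. Dld shares 303 exonic bases with Lamb1 on the other strand, which averaged 99.6 FPKM in IVM and 94.9 in IVO. The part of Map3k15 and Lamb1 in these values was not tested. The germ cell paralog Pdha2 was at 2.81 to 5.32 FPKM in IVM and 2.27 to 3.25 in IVO.

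The kinases Pdk1, Pdk2 and Pdk3 switch the complex off by phosphorylation, and the phosphatases Pdp1 and Pdp2 switch it on. Pdk3 was the main kinase transcript, at 23.4 to 34.4 FPKM in IVM and 29.3 to 33.3 in IVO, and Pdp1 the main phosphatase transcript, at 28.5 to 33.3 and 33.1 to 37.9 FPKM. Their log2FC was 0.04 and 0.18 (SE 0.21 and 0.18), and that of Pdk1 was 0.54 (SE 0.29, adjusted p = 0.216), with a range of 1.78 to 3.43 FPKM in IVM and 3.26 to 5.71 in IVO. Pdk2 was at 0.60, 0.19 and 0.31 FPKM in IVM and listed at 0, 0 and 0.11 FPKM in IVO, where 3 fragments would correspond to 0.083 to 0.084 FPKM. Pdp2 stayed at 0.43 FPKM or less, and Pdk4, a kinase outside the 34 genes, at 0.02 FPKM or less. The summed kinases over the summed phosphatases gave a ratio of 0.762 to 1.29 in IVM and 0.872 to 1.05 in IVO, overlapping.

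Of the side reactions, pyruvate carboxylase (Pcx), which makes oxaloacetate directly from pyruvate, was the most variable, at 26.1, 15.4 and 31.9 FPKM in IVM and 36.0, 11.9 and 55.0 FPKM in IVO. Its IVO values enclosed the IVM values, with a log2FC of 0.29 (SE 0.55, adjusted p = 0.739). Pck2, the mitochondrial phosphoenolpyruvate carboxykinase, was at 0.17 to 0.34 FPKM in IVM and 0.03 to 0.05 in IVO, under the limit for testing. In the oxoglutarate dehydrogenase complex, Ogdh, the first enzyme, was at 6.01, 4.46 and 6.64 FPKM in IVM and 2.80, 2.85 and 3.60 FPKM in IVO. Those groups did not overlap, but the log2FC of -0.71 (SE 0.23) had an adjusted p of 0.0649. Dlst, the succinyl transferase of that complex, overlapped at 3.88 to 8.01 and 6.46 to 13.3 FPKM (log2FC 0.46, SE 0.35). The ratio of Dlst to Ogdh was 1.33, 0.870 and 0.956 in IVM and 2.31, 4.67 and 1.93 in IVO, apart by a log2 difference of 1.41 (exact permutation p = 0.1).

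Over the 30 tested genes, the IVO samples lay wholly below the IVM samples for 8 (26.7%) and wholly above for 7 (23.3%), beside 32.6% and 9.62% of all tested rows. The 7 above were Mpc1, Pdhb, Idh1, Sucla2, Suclg1, Suclg2 and Sdhc, and the 8 below were the 7 past the test and Ogdh. The median log2FC was 0.16, beside -0.30 over all tested rows and -0.18 over the Ensembl genes among them. After median-ratio scaling it was 0.48, beside -0.04. Under that scaling 6 of the 30 were higher at an adjusted p under 0.05 (Mpc1, Pdhb, Idh1, Sucla2, Suclg1 and Suclg2), beside 7.14% of all rows, and 4 were lower (Idh2, Mdh2, Aco1 and Sdhd), beside 13.2%. With the fold threshold, 2 were called higher (Sucla2 and Suclg1), beside 2.05% of all rows, and 3 lower (Idh2, Mdh2 and Sdhd), beside 11.3%. The direction of Mdh1 flipped under median-ratio scaling, and those of Mdh1, Mpc2 and Dld under quantile normalization, while each of the 8 genes past the test kept its sign. Summed over the 34 genes, the transcripts took 0.0649% to 0.0686% of the FPKM in IVM and 0.0716% to 0.0864% in IVO. The sums themselves overlapped, at 1237.6 to 1449.4 FPKM in IVM and 1177.5 to 1348.5 in IVO, while the FPKM of all rows summed lower in IVO. Mpc1, Mdh1 and Dld, with the highest means, weigh most in these sums. For the ratios, 5 of 21 were apart with IVO above and 6 with IVO below, where 39.6% of all pairs of tested rows were apart in either direction.

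Length moved with the change over all rows. Rows listed with under 500 bases had a median log2FC of -0.99, those of 500 to 1000 bases -0.35, and those of 2000 to 4000 bases -0.13. The tested genes here had a median length of 2525 bases, beside 1536.5 over all tested rows, and none was under 500 bases. In the band of 2000 to 4000 bases, which held 15 of the 30, 12.3% of rows were called lower at the threshold. The inferred mean fragment length was 200 to 215 bases in IVM and 245 to 265 in IVO, and its part in these values was not tested. With the trend of each library with length removed, Idh2 was at -4.61 (adjusted p = 0.00783) and Sucla2 at 1.77 (adjusted p = 0.00274).

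**Figure D4:**
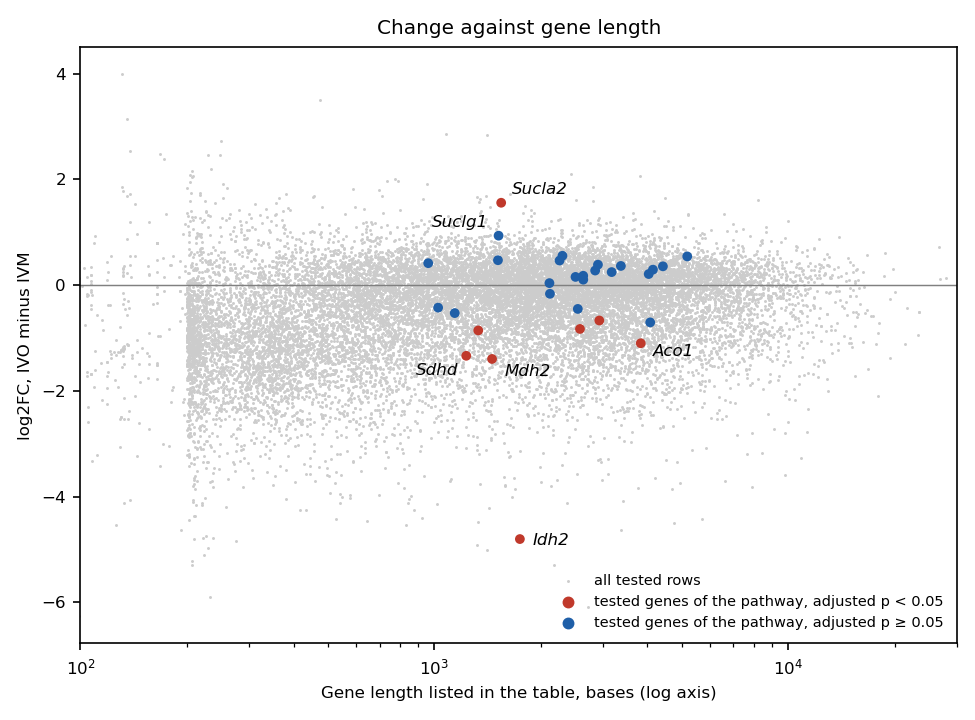
log2FC (IVO minus IVM) against the gene length listed in the table, on a log axis, for all tested rows (grey) and for the 30 tested genes of the pathway, red where the adjusted p is under 0.05 and blue otherwise. The grey rows sink toward short lengths, with a median of -0.99 under 500 bases and -0.13 from 2000 to 4000 bases, and Idh2 and Sucla2 stand outside the bulk of rows of their length.

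Neighbouring genes of the same route were described as a list of 24 paralogs, regulators, assembly factors and side enzymes, of which 17 were tested. At the threshold 4 were lower in IVO (23.5%, beside 17.9% of all rows). At an adjusted p under 0.05 with any fold in the limma fit, 5 were lower (29.4%, beside 21.5%) and 0 were higher, beside 1.87%. The median log2FC was -0.48, beside -0.30 over all tested rows. Ogdhl, a paralog of Ogdh, was at 122, 115 and 152 FPKM in IVM and 55.3, 30.2 and 46.7 FPKM in IVO (log2FC -1.57, SE 0.26, adjusted p = 0.00712), and was the more abundant of the pair per length in all 6 samples. The other genes called lower were Slc25a1, the citrate carrier (-1.62, adjusted p = 0.0198), Got1, the cytosolic aspartate aminotransferase (-1.71, adjusted p = 0.0146), and Sdhaf4, an assembly factor of complex II (-1.31, adjusted p = 0.0114). Mrps36, a link protein of the oxoglutarate complex, had a log2FC of -0.56 (adjusted p = 0.0407) as deposited and -0.24 (adjusted p = 0.370) after median-ratio scaling, under which Sdhaf4 was at -0.99 (adjusted p = 0.0465). Pdpr, which regulates the PDH phosphatase, was at 96.1, 89.3 and 91.8 FPKM in IVM and 61.4, 0.84 and 1.92 FPKM in IVO, where IVO 1 stood far from the other two IVO samples, and it did not pass (log2FC -3.75, SE 1.20, adjusted p = 0.0618).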

How the data were processed

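RNA of 3 IVM and 3 IVO pools was amplified as full-length cDNA (SMART-Seq v4) and sequenced as paired ends. The authors filtered reads with SeqPrep and Sickle, aligned them with HISAT2 2.1.0 to GRCm39 and deposited RSEM 1.3.3 FPKM per gene and sample. How rows without an Ensembl identifier were assembled is not given in the sources used here. The FPKM were used as deposited, so the count test of the authors (DESeq2 1.24.0) was not run, and columns of group means were not used. Groups came from the sample titles.

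The 34 genes and all lists were chosen with earlier results of these data known. An item of the list of neighbouring genes is not reported here. In R 4.3.3, limma 3.58.1 (lmFit, eBayes with trend) was fitted on log2(FPKM + 1) over all 18818 rows with a mean of at least 1 FPKM, with two-sided p-values adjusted by Benjamini-Hochberg over all rows, and tested on simulated data. The log2 scale understates the change of low genes. Called genes had |log2FC| ≥ 1 and an adjusted p under 0.05. Values per sample were given for each gene with an adjusted p under 0.05, for the 3 genes with the highest mean, and for at least 1 other subunit of each enzyme holding such a gene; the others, among them those not tested, were given in part by ranges, and the genes shown beyond this rule were chosen after their values were seen. Ratios were tested by an exact permutation test. The methods call the pools biological replicates and the labels do not tie them to mice, so p-values measure only the spread between these pools.

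Steps of low FPKM values gave a depth of 16400000 to 19100000 fragments in IVM and 17850000 to 18200000 in IVO. Of the low values, 70.2% to 75.7% came out whole within 0.1 fragment, too few to recover counts, and 3 fragments on 1000 bases correspond to 0.196 to 0.233 FPKM, for counting error only. The alternatives tried were no filter or a mean of at least 5 FPKM, a pseudocount of 0.1, median-ratio, same-sum and quantile scaling, eBayes without trend, a replicate block, removal of the length trend (lowess, span 0.3), Ensembl genes only and leaving out each sample. Transcript ends came from GENCODE M39. Tables used Python 3.11.15, pandas 2.3.3 and numpy 2.4.6.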

Additional observations from a re-analysis of the deposited data

How the results depend on the processing

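The sign of each of the 8 genes past the test was the same in every alternative run. The number called lower at the threshold, 4 as deposited, was 5 with a pseudocount of 0.1 and 2 with a mean of at least 5 FPKM. It was 2 with libraries set to the same sum, 1 after quantile normalization, 2 with the length trend removed and 1 to 4 with one sample left out (1 without IVM 3, IVO 2 or IVO 3). The number called higher, 1 as deposited, was 2 after median-ratio scaling, 2 with the same sum, 3 after quantile normalization, 2 with the length trend removed and 1 to 2 with one sample left out (2 without IVM 3). Lower at an adjusted p under 0.05 with any fold, 7 as deposited, became 4, 4, 2, 2 and 4 with at least 5 FPKM, median-ratio scaling, the same sum, quantile normalization and the length trend removed, and 2 to 6 with one sample left out (2 without IVO 2 or IVO 3, 3 without IVM 3, 4 without IVM 1 or IVO 1). Higher with any fold, 1 as deposited, became 2, 3, 6, 5, 12, 5 and 3 with no filter, at least 5 FPKM, median-ratio scaling, the same sum, quantile normalization, the length trend removed and Ensembl genes only, and 1 to 2 with one sample left out (2 without IVM 3). The median log2FC, 0.16 as deposited, was 0.48, 0.50, 0.65 and 0.36 with median-ratio scaling, the same sum, quantile normalization and the length trend removed, and 0.026 (without IVM 2) to 0.21 with one sample left out. All rows moved as well. With any fold, 1.87% of them were higher as deposited and 7.14% after median-ratio scaling, and 21.5% and 13.2% were lower. Their median log2FC was -0.30 as deposited, -0.04 with median-ratio scaling, -0.03 with the same sum and 0.17 after quantile normalization. Shares of all rows are not given for the other settings, so these counts are no result about the 34 genes. The cause of these moves was not tested.

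With the replicate number as a block, 3 genes were called lower at the threshold and 3 lower with any fold, and with the block and the length trend removed, 1 and 1, with a median of 0.36. The same numbers share no stated litter or day, and none of the 3 same-numbered pairs deviated together (correlations -0.06, -0.02 and -0.11), nor did any sample correlate best with its own number.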
